A study of Rattus norvegicus with 31 samples.

Results

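The comparison described here set aged rats with preserved spatial memory (aged unimpaired, AU) against aged rats with impaired memory (aged impaired, AI) after both had been trained in the spatial version of a water maze task. It used the 8 arrays whose labels name spatial training and unimpaired rats (AU-S) and the 8 whose labels name spatial training and impaired rats (AI-S), which were 16 of the 31 arrays of the series. Each array held RNA of 1 rat, from the CA3 field of the hippocampus, dissected by hand and pooled from both hemispheres. All rats were male Long-Evans rats, an outbred strain, aged 24 to 26 months. AU rats had a water maze learning index within the range of young rats, and AI rats had an index outside it. About a month later both groups swam 8 trials to a visible platform that stayed at 1 place among prominent cues around the pool, had a probe test without the platform, and gave tissue about 2 hours after the task began. No drug or genetic change of the rats is named in the sources used here. The other arrays came from rats that swam to a platform moved on every trial, with the cues removed (non-spatial training), in the groups AU-NS (8 arrays) and AI-NS (7 arrays).

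CA3 pyramidal neurons receive mossy fibre input from dentate granule cells and connect densely with one another, a circuit known for rapid storage and completion of memories of places. Training changes transcript levels in these neurons over minutes to hours, first for immediate early transcription factors and then for genes of synapses, signalling and metabolism. In aged rats with poor spatial memory the field is known to be overactive, so genes of transmitter release, inhibition and energy supply are of interest in the comparison.

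The arrays carry probesets, groups of short probes that each report part of a transcript, and many genes have several. The values were log2 signals after gcRMA, the normalization of the authors, and covered 16204 probesets. Of these, 12236 carried the name of a single gene and covered 9036 genes, and 2392 genes had 2 or more probesets. A gene's brightest probeset was the one with the highest mean over these 16 arrays. A probeset was called when its limma adjusted p, over all 16204 probesets, was under 0.1, and the difference is given as AU-S minus AI-S on the log2 scale. The medians of the 16 arrays lay between 8.99 and 9.08, each array correlated with the remaining ones at 0.982 to 0.989 on average, and no array stood apart by these measures. Grik4, a kainate receptor subunit typical of CA3, averaged 10.26 ± 0.20 in AU-S and 10.19 ± 0.18 in AI-S (SD, n = 8 each). Prox1, the transcription factor of dentate granule cells, was measured on the same arrays, at 7.77 to 9.25 in AU-S and 7.99 to 9.68 in AI-S. In such bulk tissue, fewer cells of a type and less RNA per cell cannot be told apart.

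The array's control probesets were examined first, because the groups differed in them. Gapdh, beta-actin and hexokinase each have a control probeset near the 3′ end of the transcript and another near the 5′ end. Labelling starts at the 3′ end, so the 3′ minus 5′ difference is a usual measure of how far labelled RNA reached towards the 5′ end, and a larger one means relatively less signal at the 5′ end. For hexokinase this difference averaged 1.42 ± 0.15 in AU-S and 1.81 ± 0.20 in AI-S (SD, n = 8 each). The AU-S arrays ran from 1.22 to 1.64 and the AI-S arrays from 1.52 to 2.19. The hexokinase difference was therefore lower in AU-S by 0.40, and 6 AU-S arrays lay below every AI-S array (two-sided exact permutation test, p = 0.000777). For beta-actin the 3′ minus 5′ difference was 2.74 ± 0.14 in AU-S and 2.92 ± 0.15 in AI-S (exact permutation p = 0.0232). Gapdh, whose difference was small on every array, had 0.23 ± 0.09 in AU-S and 0.26 ± 0.06 in AI-S (exact permutation p = 0.39). The mean of Gapdh and beta-actin was 1.48 in AU-S and 1.59 in AI-S (exact permutation p = 0.0502), and passed 0.05 when AU-S 5 (p = 0.00155), AI-S 1 (p = 0.028) or AI-S 7 (p = 0.0462) was left out. The hexokinase control probesets also differed in level, and a difference in expression of the gene and one in RNA quality cannot be told apart in them. The 5′ control was called, at 9.05, 9.32 and 9.68 (lowest, median and highest) in AU-S and 8.26, 8.65 and 9.14 in AI-S, a difference of 0.68 ± 0.12 (SE, adjusted p = 0.0515). The middle control rose by 0.39 (adjusted p = 0.0996), and the 3′ control was higher by 0.29 without passing (adjusted p = 0.166). Every result below therefore stands beside a difference in these controls, and the part of RNA quality in it was not tested apart from fits that hold a control difference constant, which are given for the called probesets and for most of the families whose count they change.

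**Figure D1:**
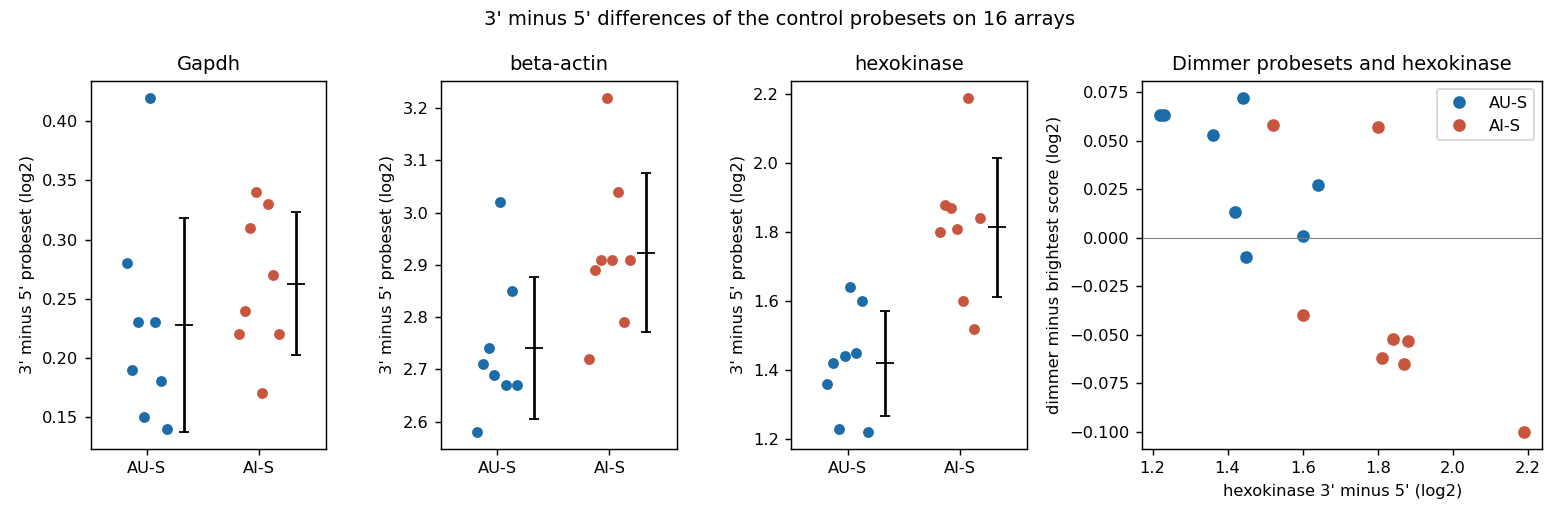
The 3 left panels plot 3′ minus 5′ signal (log2) of Gapdh, beta-actin and hexokinase on each of the 8 AU-S and 8 AI-S arrays (points), with the mean and SD of each group, and the right panel plots each array's score of dimmer against brightest probesets (log2, described further on) against its hexokinase difference. Hexokinase points separate most, at 1.22 to 1.64 in AU-S and 1.52 to 2.19 in AI-S, and the score is lower on arrays with a larger hexokinase difference.

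After spatial training, 67 of 16204 probesets were called between AU-S and AI-S (0.413%). Of these, 63 rose in AU-S (0.389%) and 4 fell (0.0247%). The 63 include the 5′ and middle hexokinase controls. The increases were modest, with a median difference of 0.39 on the log2 scale and a range of 0.23 to 0.86, and the largest corresponded to 1.82-fold. The decreases had differences of -0.34 to -0.55. For 66 of the 67 all 8 AU-S arrays lay on the same side of the AI-S mean. The 67 were selected by their difference on these same arrays, which favours such a count. The 2 groups of arrays did not overlap for 16 of the called probesets, against 20 of all probesets with every AU-S array above every AI-S array (0.123%) and 1 with every AU-S array below (0.00617%). At the looser limit of an unadjusted p under 0.05, 1364 probesets were higher in AU-S (8.42%) and 621 were lower (3.83%). The median difference over all probesets was 0.011, and 53.9% of them were higher in AU-S. The largest differences were not among the calls. Sgcb, a sarcoglycan named here because its values were the most distant of all, averaged 9.45 ± 3.06 in AU-S and 6.58 ± 2.68 in AI-S, and its difference of 2.87 was not called (adjusted p = 0.384). The calls were also sensitive to single arrays: 5 called probesets passed in every one of 16 fits with 1 array left out (Cd2bp2, Pdha1, Tlk2, Nup50 and 1 without a gene name), and 10 passed in at least 8 of them. With the hexokinase 3′ minus 5′ difference as a covariate all 67 kept their sign, and the median of the increases was 0.24. Of the 67, 38 then had an unadjusted p under 0.05 and none was called by limma. In that fit 1114 of all 16204 probesets had an unadjusted p under 0.05. The groups themselves differed in this covariate, with 6 AU-S arrays below every AI-S array. The fit therefore separates it from the group difference with less precision. A lost call or a smaller value in this fit, here or in the families, does not show that a difference is absent. The 5′ hexokinase control among the 67 is itself part of this covariate. With the Gapdh and beta-actin mean as the covariate all 67 kept their sign and an unadjusted p under 0.05, and 1 was called.

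**Figure D2:**
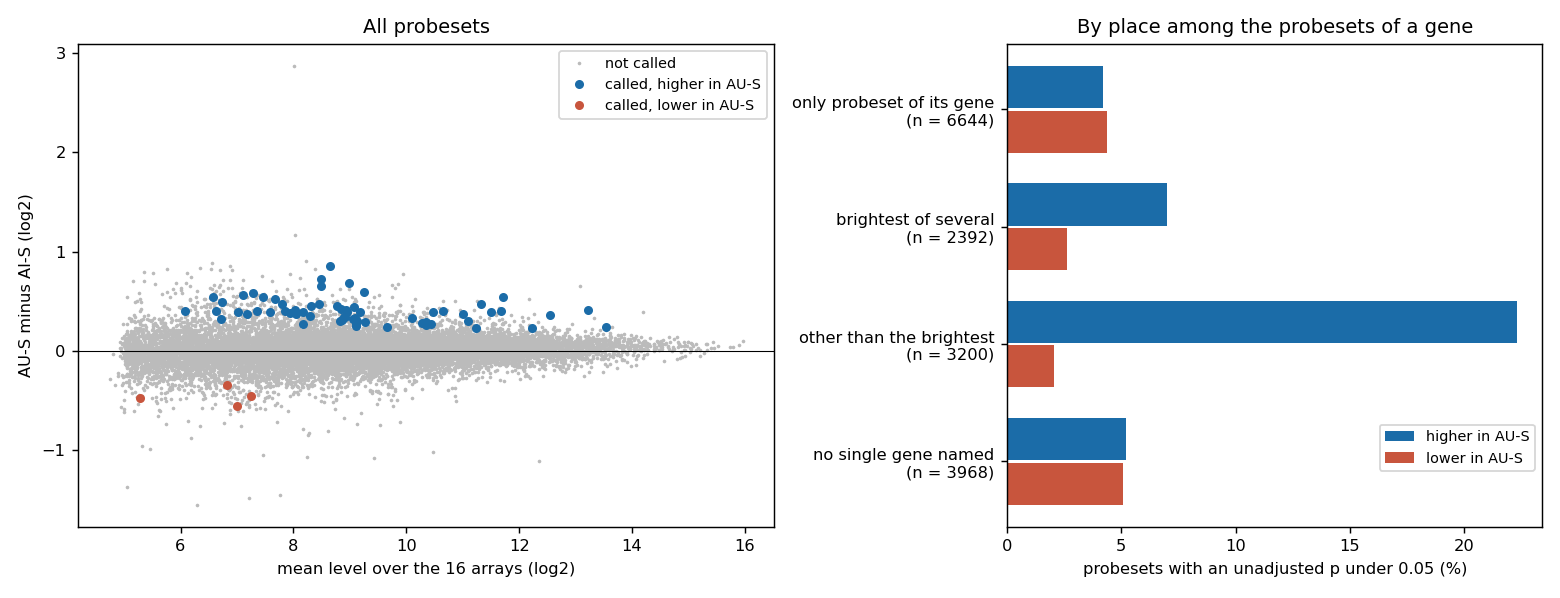
The left panel plots each of 16204 probesets by its mean level over the 16 arrays (log2, horizontal) and its difference, AU-S minus AI-S (log2, vertical), with the 63 called increases and 4 called decreases coloured. The right panel gives the percentage of probesets with an unadjusted p under 0.05 in each direction for 4 classes, and the bar for increases is longest, at 22.3%, for probesets other than a gene's brightest.

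The called genes are described by role, beginning with those that handle RNA. Cd2bp2, which encodes a component of the U5 small nuclear ribonucleoprotein of the spliceosome, had 8.63, 8.83 and 9.07 (lowest, median and highest) in AU-S and 7.86, 8.18 and 8.38 in AI-S at the probeset 1385676_at. Every AU-S array lay above every AI-S array, and the difference of 0.65 ± 0.08 was 1.57-fold (SE, adjusted p = 0.00249). Nup50, which helps release import cargo at nuclear pores, also separated the groups, with 7.65, 7.79 and 8.00 in AU-S against 7.15, 7.43 and 7.50 in AI-S and a difference of 0.39 (adjusted p = 0.0272). Rbm18, an RNA-binding protein, had 9.35, 9.41 and 9.53 in AU-S and 9.02, 9.09 and 9.27 in AI-S, without overlap, and rose by 0.29 (adjusted p = 0.0476). Nudt21, the cleavage factor subunit that takes part in the choice of polyadenylation site, rose by 0.40 (adjusted p = 0.0708), and its groups met at 7.87 for the lowest AU-S array and 7.90 for the highest AI-S array. The aminoacyl-tRNA synthetase genes Eprs1 and Gars1 rose by 0.47 (adjusted p = 0.0744) and 0.27 (adjusted p = 0.0823). Zc3h11a, which binds RNA in mRNA export, rose by 0.32 without overlap (adjusted p = 0.0829). For these genes other than Nup50, which has a single probeset, the called probeset was not the brightest. The brightest gave 0.11 for Cd2bp2 (adjusted p = 0.369), 0.13 for Eprs1 and 0.05 for Zc3h11a. For Rbm18, Nudt21 and Gars1 it gave -0.01, 0.02 and 0.01, and none of these was called.

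Several increases concerned glucose use and mitochondria. Pdha1, the catalytic alpha subunit of pyruvate dehydrogenase, which passes pyruvate to the citrate cycle, had 11.59, 11.66 and 11.88 in AU-S and 11.17, 11.29 and 11.51 in AI-S at 1383698_at. The groups did not overlap, and the difference was 0.39 ± 0.06 or 1.31-fold (SE, adjusted p = 0.026). Pfkm, a phosphofructokinase and so an enzyme of the committed step of glycolysis, had 11.27, 11.60 and 11.77 in AU-S and 10.84, 11.11 and 11.21 in AI-S, again without overlap, and rose by 0.47 ± 0.08 (adjusted p = 0.0476). Slc2a3, the main glucose transporter of neurons, had 8.61, 8.82 and 9.46 in AU-S and 7.83, 7.94 and 8.70 in AI-S. Its difference of 0.72 ± 0.15 was 1.64-fold (adjusted p = 0.0808), and the lowest AU-S array lay below the highest AI-S array. Isca1, which assembles iron-sulphur clusters in mitochondria, and Immt, which shapes the inner membrane, rose by 0.23 (adjusted p = 0.0997) and 0.32 (adjusted p = 0.0762). For each of these 5 genes the called probeset was not the brightest, and the brightest gave 0.13 for Pdha1 (adjusted p = 0.316), 0.18 for Pfkm (adjusted p = 0.257), 0.08 for Slc2a3, 0.06 for Immt and 0.01 for Isca1, none of them called.

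Other increases concerned vesicle traffic and transport along microtubules. Nsf, whose ATPase activity recycles SNARE complexes after fusion, had 13.49, 13.69 and 13.82 in AU-S and 13.32, 13.39 and 13.56 in AI-S, and rose by 0.24 ± 0.05 (adjusted p = 0.0874). All 3 probesets of Nsf were higher in AU-S, by 0.17 at the brightest (adjusted p = 0.169) and by 0.10 at the remaining one (adjusted p = 0.422). Ap3d1, the delta subunit of the AP-3 coat that sorts cargo to lysosomes and synaptic vesicles, had 9.16, 9.27 and 9.45 in AU-S and 8.86, 8.99 and 9.15 in AI-S, without overlap (0.30, adjusted p = 0.0732). Klc1, a kinesin light chain, had 11.61, 12.02 and 12.35 in AU-S and 11.07, 11.47 and 11.78 in AI-S at 1388125_a_at, a difference of 0.54 ± 0.11 (adjusted p = 0.0732). The other 2 probesets of Klc1 gave 0.11 each and were not called. Kif3b, a motor subunit of kinesin-2, had 5.97, 6.27 and 6.51 in AU-S and 5.74, 5.87 and 6.03 in AI-S, a difference of 0.40 (adjusted p = 0.0732). The Arf exchange factors Cyth1 and Arfgef2 rose by 0.58 and 0.38 (adjusted p = 0.0746 and 0.0996). Agap3, a GTPase-activating protein, which acts against exchange factors, rose by 0.31 (adjusted p = 0.0746). Vps41, a member of the complex that tethers late endosomes to lysosomes, rose by 0.30, and Atl2, which fuses tubules of the endoplasmic reticulum, rose by 0.45 (adjusted p = 0.0829 for both). At their brightest probesets Ap3d1, Kif3b, Vps41 and Cyth1 gave 0.00, 0.01, -0.01 and -0.04. Atl2 gave 0.06 and Agap3 0.21 at the brightest, neither called.

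Among signalling and synaptic genes, Mpp3, a membrane guanylate kinase scaffold, had the largest difference of the called probesets. It had 8.71, 9.05 and 9.50 in AU-S and 7.58, 8.23 and 9.0 in AI-S at 1371167_at, so the ranges overlapped although the difference was 0.86 ± 0.17 or 1.82-fold (adjusted p = 0.0744). Its other probesets gave 0.45 (adjusted p = 0.154) and, at the brightest, 0.17 (adjusted p = 0.369), both higher in AU-S and neither called. Ppp2r2c, a brain-enriched regulatory subunit of protein phosphatase 2A with a single probeset, had 9.29, 9.57 and 9.80 in AU-S and 8.52, 8.91 and 9.33 in AI-S, a difference of 0.59 ± 0.10 (adjusted p = 0.0476). Gabrg1, the gamma-1 subunit of the GABA-A receptor, had 9.05, 9.12 and 9.23 in AU-S and 8.35, 8.68 and 9.06 in AI-S, a difference of 0.41 ± 0.09 (adjusted p = 0.0823). The AU-S arrays were tightly grouped for Gabrg1, and 1 AI-S array reached their lower edge. Akt2, a kinase of insulin and growth factor signalling, had 7.01, 7.42 and 7.70 in AU-S and 6.48, 6.79 and 7.15 in AI-S, a difference of 0.56 ± 0.11 (adjusted p = 0.0744). Its brightest probeset gave 0.13 (adjusted p = 0.724) and the other 0.38 (adjusted p = 0.401). Fgfr2, a fibroblast growth factor receptor, rose by 0.54 (adjusted p = 0.084). Kidins220, a scaffold of neurotrophin receptors, rose by 0.39 (adjusted p = 0.0874), and Ifnar1, an interferon receptor chain, rose by 0.39 (adjusted p = 0.0744). The brightest probesets of Fgfr2, Kidins220 and Ifnar1 gave 0.07, 0.16 and 0.09, none of them called. Efr3b, which anchors a lipid kinase at the plasma membrane, rose by 0.23 at its single probeset, without overlap (adjusted p = 0.0813). Mobp, a myelin protein gene, had 13.11, 13.47 and 13.52 in AU-S and 12.64, 13.03 and 13.38 in AI-S at 1370500_a_at (0.41, adjusted p = 0.0829), while its brightest probeset gave 0.09 and the third 0.08.

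Further increases were in genes of other roles. Gmcl1, an adaptor of a ubiquitin ligase, had 7.79, 7.89 and 8.18 in AU-S and 7.18, 7.39 and 7.72 in AI-S, without overlap (0.52, adjusted p = 0.0414), and its brightest probeset gave 0.00. Thnsl1, a gene similar to threonine synthase, had 6.85, 6.97 and 7.13 in AU-S and 5.97, 6.63 and 6.77 in AI-S, without overlap (0.49, adjusted p = 0.0829). Ablim1 and Cttn, both of which bind actin filaments, rose by 0.54 (adjusted p = 0.0744) and 0.39 (adjusted p = 0.0642). The adhesion gene Jam2 rose by 0.47 (adjusted p = 0.0829), and Ube2g2, a ubiquitin conjugating enzyme, by 0.41 (adjusted p = 0.084). For Ube2g2 7 of 8 AU-S arrays lay above the AI-S mean. At their brightest probesets Ablim1, Cttn, Jam2 and Ube2g2 gave 0.07, 0.12, 0.08 and 0.21, none of them called.

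Of the 4 probesets that fell, 3 had a gene name. Tlk2, a kinase that acts on histone chaperones during DNA replication and repair, had 6.47, 6.73 and 7.02 in AU-S and 7.02, 7.28 and 7.61 in AI-S at 1384319_at. It fell by 0.55 ± 0.08, with every AU-S array below every AI-S array before rounding (adjusted p = 0.026). The 2 other probesets of Tlk2 were not lower, at 0.06 for the brightest (adjusted p = 0.637) and 0.11 for the other (adjusted p = 0.765). Mettl15, which methylates the RNA of the small mitochondrial ribosomal subunit in human cells, had 6.80, 7.04 and 7.24 in AU-S and 7.07, 7.48 and 7.82 in AI-S at its single probeset (-0.45, adjusted p = 0.0813). Mitf, a transcription factor known from pigment cells and lysosome genes, had 4.79, 5.04 and 5.24 in AU-S and 5.21, 5.44 and 6.06 in AI-S (-0.47, adjusted p = 0.0996). Its brighter probeset gave -0.12 (adjusted p = 0.827), and the called one was among the dimmest of the table.

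**Figure D3:**
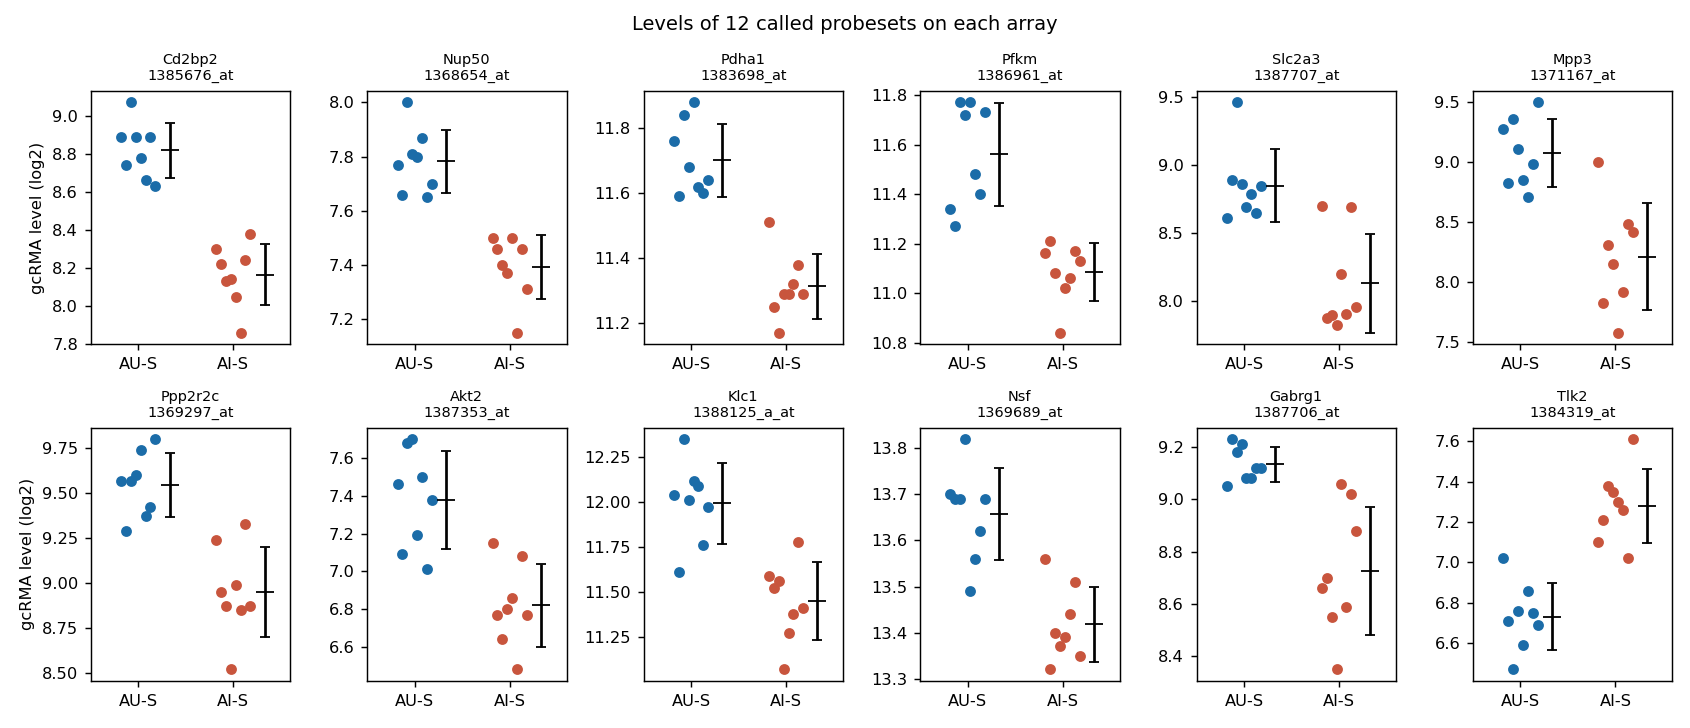
Levels (gcRMA, log2) of 12 called probesets on each of the 8 AU-S and 8 AI-S arrays (points), with the mean and SD of each group beside them, each panel with its own axis. AU-S points lie above all AI-S points for Cd2bp2, Nup50, Pdha1 and Pfkm and below them for Tlk2, and the groups overlap for the other 7.

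The promoters of the called genes were read for binding motifs of the activity-regulated factors CREB, AP-1 and EGR, because training is known to engage them. RefSeq promoters of the rat assembly GRCr8, of 300 bases around the start, were at hand for 50 of the 56 called genes. The cyclic AMP response element TGACGTCA (both strands) was in 3 of the 50 (Atl2, Klc1 and Rbm18), against 1.91% of 27457 promoters and 3.33% of the promoters of measured genes. An EGR motif, GCGGGGGCG or GCGTGGGCG, was in 4 (Cyth1, Nsf, Osbpl2 and Thnsl1), against 3.31% of all and 6.79% of those measured, and an AP-1 motif, TGAGTCA or TGACTCA, was in 1 (6430548M08Rikl), against 4.53% and 3.04%. The AP-1 forms are reverse complements of each other. Promoters of 3 genes described above are shown, with the motif in capitals and the rest in lower case, for Rbm18 (chr3:39884528-39884827, minus strand), Klc1 (chr6:136644350-136644649, plus strand) and Nsf (chr10:89357334-89357633, minus strand). A match describes the letters only, and binding was not measured.
Rbm18: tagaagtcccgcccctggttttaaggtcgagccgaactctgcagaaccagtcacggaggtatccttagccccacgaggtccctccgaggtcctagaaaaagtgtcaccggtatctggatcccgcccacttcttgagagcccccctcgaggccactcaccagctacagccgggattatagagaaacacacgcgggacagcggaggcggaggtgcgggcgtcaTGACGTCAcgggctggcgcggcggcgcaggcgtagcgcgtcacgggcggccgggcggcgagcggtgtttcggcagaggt
Klc1: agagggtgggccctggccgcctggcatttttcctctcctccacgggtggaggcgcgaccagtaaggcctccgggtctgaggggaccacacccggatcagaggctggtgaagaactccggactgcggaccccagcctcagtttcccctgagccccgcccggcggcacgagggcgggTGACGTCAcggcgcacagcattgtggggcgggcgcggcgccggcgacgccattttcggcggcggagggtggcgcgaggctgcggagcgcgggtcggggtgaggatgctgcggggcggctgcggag
Nsf: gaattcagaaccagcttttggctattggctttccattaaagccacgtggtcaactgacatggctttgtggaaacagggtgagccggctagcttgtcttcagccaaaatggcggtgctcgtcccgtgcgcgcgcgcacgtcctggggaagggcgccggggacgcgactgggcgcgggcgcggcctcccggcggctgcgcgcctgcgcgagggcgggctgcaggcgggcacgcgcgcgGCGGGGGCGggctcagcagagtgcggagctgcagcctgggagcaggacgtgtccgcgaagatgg

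Most calls came from a probeset that was not the gene's brightest. Of the 56 called genes 49 had several probesets, and for 48 of these the called probeset was a dimmer one, the exception being Cdc37l1, a relative of an Hsp90 cochaperone (0.34 at its brightest probeset, 0.01 at the other). At the brightest probesets of 9036 genes 8 were called (0.0885%), namely Cdc37l1 and the 7 called genes with a single probeset, Nup50, Ppp2r2c, Efr3b, Mettl15, Gabrg1, Thnsl1 and Arfgef2. The same held at the looser limit. Among 3200 probesets that were not their gene's brightest, 22.3% were higher in AU-S at an unadjusted p under 0.05 and 2.03% were lower, with a median difference of 0.07. Among the brightest probesets of the 2392 genes with several, 6.98% were higher and 2.63% lower, with a median of 0.021. Among 6644 genes with a single probeset 4.18% were higher and 4.38% lower, and the median was -0.003. Over the brightest probesets of all 9036 genes 4.92% were higher and 3.92% lower. With each array centred on its median these last 2 shares were 3.49% and 5.57%, and after quantile normalization 3.45% and 5.38%, so the balance between higher and lower at the brightest probesets depended on the scaling. By level alone the shares differed less, with 5.19% of probesets with a mean under 6 higher in AU-S, 8.2% with a mean of 6 to 8, 8.44% with 8 to 10 and 9.53% with 10 to 12. The probesets of a gene often disagreed: all had the same sign in 1456 of 2392 genes (60.9%), and the smallest p was at the brightest probeset in 773. When the brightest probeset was instead chosen on the non-spatial arrays it differed for 29 genes, and 48 of the called genes still had their call at a dimmer one.

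**Figure D4:**
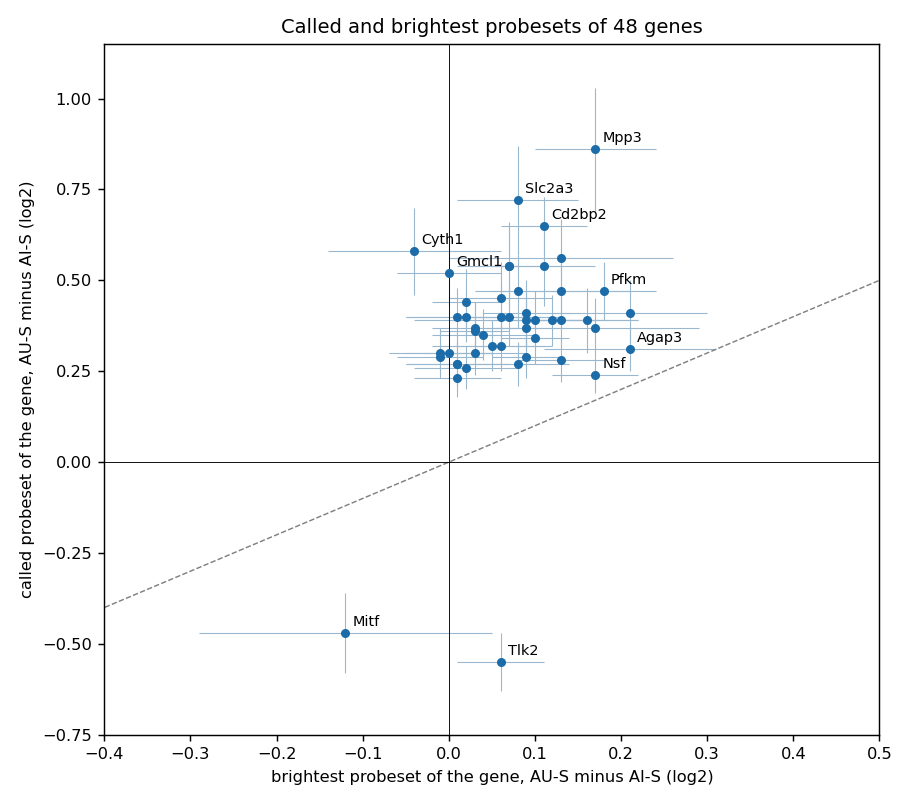
For the 48 called genes whose call was at a dimmer probeset, the difference there (vertical, AU-S minus AI-S, log2) against that at the gene's brightest probeset (horizontal, log2), with SE bars and a dashed line of equality. The axes have different ranges, the increases lie above the line, and Tlk2 and Mitf lie below it.

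A score per array described this pattern. It was the median, over the 2392 genes, of the mean of the dimmer probesets minus the brightest, relative to the gene's mean over the arrays, and it was chosen after the values above had been seen. The score ran from -0.01 to 0.072 in AU-S (median 0.04) and from -0.10 to 0.058 in AI-S (median -0.053). All AI-S arrays except AI-S 1 and AI-S 7 lay below every AU-S array, and 3 AU-S arrays lay above every AI-S array. For 1646 of the 2392 genes (68.8%) the dimmer probesets were relatively higher in AU-S. The score went with the 3′ minus 5′ controls. Over the 16 arrays its correlation with the hexokinase difference was r = -0.797 (permutation p = 0.00032, adjusted over 3 relations 0.00096) and Spearman's rho = -0.809 (permutation p = 0.00023). Without the 2 arrays farthest from the median r was -0.698, within AU-S it was -0.606 (exact permutation p = 0.12) and within AI-S -0.673 (exact permutation p = 0.0678). For beta-actin r was -0.719 (permutation p = 0.00164, adjusted 0.00246), and within the groups -0.293 (exact permutation p = 0.507) in AU-S and -0.734 (exact permutation p = 0.0382) in AI-S. For Gapdh r was -0.351 (permutation p = 0.181). Arrays with more 5′ signal relative to 3′ signal in hexokinase thus had relatively higher dimmer probesets, over all arrays and with the same sign within each group. Where along the transcript the dimmer probesets lie was not tested here.

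The gene families were read at the brightest probeset, with the background of 4.92% higher and 3.92% lower. Members counted as higher or lower had an unadjusted p under 0.05, which is what passed means for the families and markers, and a family's count is given without a test. With the hexokinase covariate 6.06% of the 9036 genes were higher and 1.08% lower, and their median was 0.051, against 0.004 without it. Genes of the active zone, where vesicles dock and are primed, had 5 of 19 members higher in AU-S at an unadjusted p under 0.05, none lower and a median of 0.066. Unc13a, which primes vesicles for fusion, had 7.70, 8.35 and 8.68 in AU-S and 7.23, 7.63 and 8.09 in AI-S, a difference of 0.57 that was not called (adjusted p = 0.137). Unc13b, Rims2, Pclo and Cadps gave 0.30, 0.29, 0.40 and 0.13. The active zone count was 3 higher after centring or quantile normalization and 1 higher and 1 lower with the hexokinase covariate, which gave 0.18 for Unc13a, 0.33 for Unc13b and 0.04 for Pclo. Among 36 genes of clathrin coats and vesicle retrieval 7 were higher and 2 lower, with a median of 0.060. The higher ones included Sh3gl2 (endophilin A1, 0.26), Itsn1 (0.15) and Ap2m1 (0.13), and the lower ones were the AP-3 subunits Ap3b1 (-0.19) and Ap3m1 (-0.16), although Ap3d1 of the same coat was called higher at its dimmer probeset. SNARE genes had 2 of 32 higher, Nsf and Stx6, and synaptotagmins, the calcium sensors of release, had 2 of 9, Syt13 (0.54) and Syt1 (0.30, adjusted p = 0.213), which gave 0.20 and -0.01 with the hexokinase covariate, where none passed. In the list of pumps and exchangers 5 of 18 were higher, among them the chloride exchangers Clcn7 (0.36) and Clcn6 (0.18) and the calcium pump Atp2a2 (0.11), and Clic2 was lower (-0.43). With the hexokinase covariate 2 pumps and exchangers were higher and 1 was lower, and of the clathrin and retrieval genes 4 were higher and none lower.

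Kinases and motors were counted in the same way. Of 19 protein kinase A and C genes 4 were higher and none lower (median 0.055). Prkca, a conventional protein kinase C, had 10.02, 10.49 and 10.84 in AU-S and 9.73, 10.17 and 10.40 in AI-S (0.39, adjusted p = 0.191, not called), and Prkar1a, the regulatory subunit of protein kinase A, gave 0.17. With the hexokinase covariate 1 of the 19 was higher, and Prkca gave 0.04 and Prkar1a 0.12. In the ERK and JNK cascades 2 of 20 were higher, Mapk9 (0.27) and Mapk8ip3, a JNK scaffold carried by kinesin (0.86, adjusted p = 0.209), whose sign turned with the hexokinase covariate (-0.17). Among 45 motor genes 7 were higher and 1 lower. Kif3a, the partner of Kif3b in kinesin-2, had 9.71, 9.86 and 10.07 in AU-S and 9.51, 9.56 and 9.83 in AI-S (0.25, adjusted p = 0.122), Dync1h1, the dynein heavy chain, gave 0.24, and the light chain Dynlt1 was lower (-0.25). The motor count was 4 higher and none lower with the hexokinase covariate, and 12 higher without AI-S 1. Of 88 genes that attach or remove ubiquitin 10 were higher and 1 lower, with Usp24 (0.32, adjusted p = 0.105) and Usp12 (0.37) in front. That balance depended on the scaling, at 5 higher and 3 lower after centring and 6 and 4 after quantile normalization. It was 4 and 0 with the hexokinase covariate, which gave 0.03 for Usp12, and 4 and 1 without AI-S 4. Glycolysis and the citrate cycle had 5 of 40 higher and 1 lower (median 0.051), the higher ones being Pfkm, Pfkp, Tpi1, Pdha1 and Pc and the lower one Pdk3, a kinase that inhibits pyruvate dehydrogenase (-0.18). With the hexokinase covariate 9 of the 40 were higher and none lower. Of 60 phosphatase genes 4 were higher and none lower, with Ppp2r2c called.

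Receptor genes are given at the brightest probeset, beside the background of 4.92% higher and 3.92% lower. Of 14 genes of GABA synthesis, transport and receptors 1 was higher, Gabrg1, and none was lower. Over all 21 probesets of these genes 6 were higher, in 6 genes, and none was lower at the same unadjusted limit. Among all dimmer probesets 22.3% were higher at that limit. Gad1, a GABA synthesizing enzyme, gave 0.10 at the brightest probeset and 0.47 at the other (adjusted p = 0.179, not called), and Gad2 gave 0.37 at its single probeset (adjusted p = 0.439) but -0.16 with the hexokinase covariate. For the GABA-B receptor, Gabbr1 gave 0.03 at the brightest probeset, 0.22 and 1.17 (adjusted p = 0.38) at the others, and Gabbr2 gave 0.05 and 0.34 (adjusted p = 0.342), so the larger values were again away from the brightest probeset. Gabra2, Gabra4, Gabra5, Gabrb1 and Gabrd gave -0.10, -0.02, 0.03, -0.03 and -0.04. Of 11 glycine receptor and inhibitory anchor genes none passed, with Gphn at 0.00, Glrb at 0.06 and Glra2 at 0.34 (adjusted p = 0.545), and Nptn gave 0.04. The dimmer probeset of Glrb gave 0.20 (adjusted p = 0.23), and Gabrb2 gave -0.06 at the brightest and 0.78 at the other (adjusted p = 0.358). Neither AMPA and kainate receptors (0 of 11 in either direction) nor NMDA receptors (0 of 5) passed. Of 6 metabotropic glutamate receptor genes 1 was higher and 1 was lower. Cnih2, an auxiliary protein listed with the AMPA receptors, had the lowest value of its list (-1.11) with a wide spread, at 11.80 ± 3.62 in AU-S and 12.91 ± 0.93 in AI-S (adjusted p = 0.755).

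App, the amyloid precursor protein gene, had 14.14, 14.17 and 14.22 in AU-S and 14.05, 14.10 and 14.11 in AI-S at its brightest probeset. The groups did not overlap, yet the difference of 0.09 was small and not called (adjusted p = 0.337), and the other probesets gave 0.15 (adjusted p = 0.2) and 0.36 (adjusted p = 0.127). The list of App, its relatives and its secretases also held other genes, such as the apolipoprotein gene Apoe and Apbb2, an App-binding adaptor. Of its 16 measured genes 3 were higher and none lower (App, Apoe at 0.13 and Apbb2 at 0.14), so no secretase was among them. Adam10, the alpha-secretase, gave 0.40 (adjusted p = 0.429) and 0.57 (adjusted p = 0.368) without a call. The App list had 1 member higher after centring, none after quantile normalization, none with the hexokinase covariate (Adam10 at 0.06 in place of 0.40) and 7 without AI-S 1. Ntrk2, the receptor of brain-derived neurotrophic factor, gave 0.02 at its brightest probeset and up to 0.21 at another (adjusted p = 0.128), and Rdx, which links membrane proteins to actin, gave -0.01 at the brightest and up to 0.32 (adjusted p = 0.224). Snap25, a SNARE of the presynaptic membrane, gave 0.07 (adjusted p = 0.53).

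Training-induced and stress genes had no member higher in AU-S at an unadjusted p under 0.05. Of 30 immediate early and activity-regulated genes 1 was lower and the median was 0.000. The lower one was Dusp1, a phosphatase of MAP kinases, with 7.65, 8.96 and 9.35 in AU-S and 9.09, 9.55 and 10.11 in AI-S (-0.74, adjusted p = 0.164). Of 13 glucocorticoid receptor and responsive genes none passed in either direction, and the median was -0.088, with Pdk4 at -0.33 and Sgk1 at -0.17. Circadian clock genes had 3 of 19 higher, Csnk1e (0.17), Nr1d2 (0.21) and Clock (0.13), with 1 higher after centring, after quantile normalization and with the hexokinase covariate.

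Genes of mitochondria and ribosomes had more members lower than higher, but the counts moved with single arrays. Of 78 genes of the mitochondrial ribosome and protein import 12 were lower in AU-S at an unadjusted p under 0.05 and none was higher, with a median of -0.070. They included Mrpl30 (-0.20, adjusted p = 0.179), Mrps6 (-0.30), Mrpl50 (-0.48) and the called Mettl15. Of 68 genes of oxidative phosphorylation 6 were lower and 2 higher, with a median of -0.071 and 12 of 68 differences above 0. The lower ones included Cox5a (-0.20) and Atp5po (-0.25), and the higher ones were Ndufv1 (0.19) and Sdha (0.17). Of 38 cytosolic ribosomal protein genes 2 were lower, Rpl12 (-0.25) and Rpl23a (-0.18), with a median of -0.069. None of these genes but Mettl15 was called, and the direction of all 3 lists turned with the hexokinase covariate, to medians of 0.107, 0.094 and 0.037. The ribosomal protein median was then below the 0.051 of all genes. With that covariate 10 mitochondrial ribosome and import genes were higher and 1 was lower, 3 oxidative phosphorylation genes were higher and none lower, and no ribosomal protein gene passed. The count of lower genes ran from 5 (without AU-S 1 or AI-S 3) to 19 (without AI-S 5) for the mitochondrial ribosome and import, from 1 to 7 for ribosomal proteins and from 0 to 15 for oxidative phosphorylation, where 0 were lower and 2 higher without AI-S 3. The 3 medians stayed below 0 with any 1 array left out. Centring, quantile normalization and the Gapdh and beta-actin covariate left the 3 medians below 0.

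**Figure D5:**
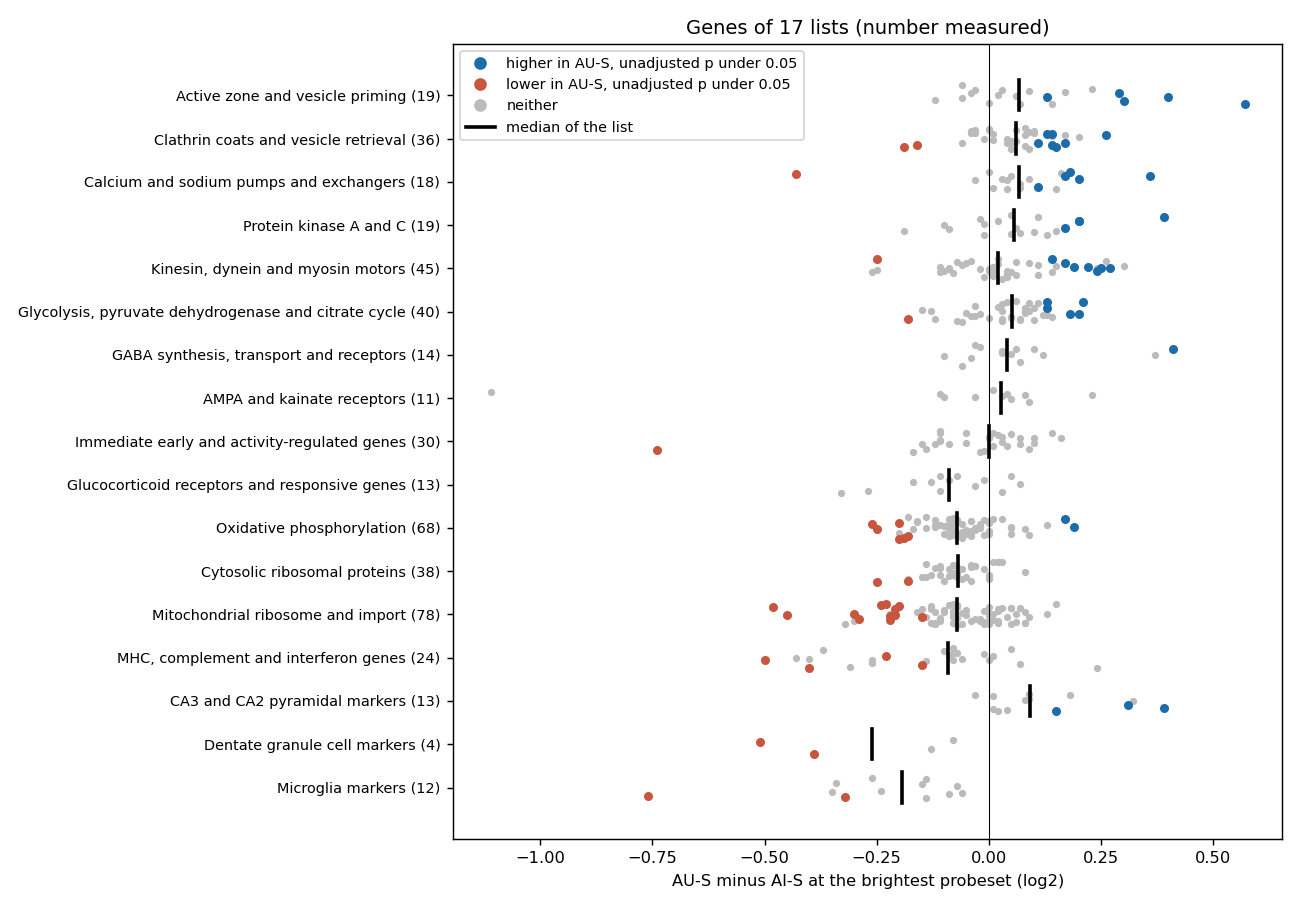
Differences at the brightest probeset (AU-S minus AI-S, log2, horizontal) for the measured genes of 17 lists (rows), with genes at an unadjusted p under 0.05 coloured and the median of each list as a bar. Active zone, kinase and motor lists have their coloured points on the right, apart from 1 motor gene, and mitochondrial ribosome, MHC and microglia lists on the left.

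Markers of cell types were read in the same way. Of 13 CA3 and CA2 markers 3 were higher and none lower, with a median of 0.091, namely the adhesion protein Amigo2 (0.39, adjusted p = 0.19), Necab1 (0.31) and the CA2 regulator Rgs14 (0.15), while Grik4 (0.08), Bok (0.04), Nptx1 (0.09) and Cpne4 (0.09) did not pass. All 4 dentate granule markers were below 0 and 2 passed. Calb1, a calcium buffer of granule cells, averaged 10.55 ± 0.26 in AU-S and 10.94 ± 0.28 in AI-S (-0.39, adjusted p = 0.209), and Prox1 medians were 8.50 in AU-S and 8.96 in AI-S (-0.51, adjusted p = 0.369). With the hexokinase covariate 1 of the CA3 and CA2 markers and none of the dentate markers passed, with medians of 0.123 and -0.322. The dentate score of the arrays was -0.08 ± 0.28 in AU-S and 0.20 ± 0.34 in AI-S (SD, n = 8 each, exact permutation p = 0.0939), and the CA1 score was -0.01 and 0.06 (exact permutation p = 0.555). With both scores as covariates all 67 called probesets kept their sign and an unadjusted p under 0.05, and 1 was called. All 12 microglia markers were below 0 (median -0.194), with 2 passing, Fcgr2b (-0.76) and P2ry12 (-0.32), and Aif1 and Csf1r at -0.24 and -0.09. Of 24 MHC, complement and interferon genes 4 were lower and none higher (median -0.092), B2m (-0.15), Stat3 (-0.23), Ifi27 (-0.50) and Ifitm3 (-0.40). AI-S 2 was the highest array in both lists, with a mean level of 0.87 above the average of the 16 arrays for microglia and 0.71 for MHC markers, against -0.50 to 0.13 and -0.28 to 0.11 in AU-S. Without AI-S 2 the medians were -0.099 and -0.041, with no microglia marker and 3 MHC, complement and interferon genes lower. With the hexokinase covariate the medians were -0.056, with none passing, and -0.148, with 1 lower. Oligodendrocyte (0 of 16), astrocyte (1 of 15), endothelial (0 of 15) and interneuron (1 of 10) markers had medians of 0.013, 0.024, 0.051 and 0.001, with Mbp at 0.07, Gfap at 0.08, Pvalb at 0.03 and Sst at -0.13. Alb, the plasma protein albumin, had 5.91, 6.91 and 7.30 in AU-S and 7.04, 7.53 and 7.74 in AI-S (-0.76, adjusted p = 0.124), while the blood marker Hbb gave 0.07. The part of these marker differences in the called genes was not tested beyond the covariate fit of the dentate and CA1 scores.

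The non-spatial arrays, of other rats, gave the same probesets a second reading. All 63 probesets called higher in AU-S than in AI-S after spatial training were also higher in AU-NS than in AI-NS. Their median difference there was 0.29, and 47 passed the unadjusted limit of 0.05. Over all probesets 8.55% were higher and 2.91% lower in AU-NS at that limit, 52.7% were higher in AU-NS and the median was 0.007. None of the 63, and none of all probesets, was called by limma in the non-spatial comparison. All 4 that fell were also lower in AU-NS, 2 of them with an unadjusted p under 0.05. The differences after non-spatial training were 0.29 for Cd2bp2, 0.32 for Pdha1, 0.45 for Pfkm, 0.56 for Slc2a3, 0.63 for Mpp3, 0.51 for Ppp2r2c, 0.28 for Gabrg1, 0.35 for Nsf, -0.19 for Tlk2 and -0.09 for Mettl15. The same classes of probeset also stood out there, since 23.7% of dimmer probesets and 6.1% of the brightest of several were higher in AU-NS. The controls differed too, with a hexokinase 3′ minus 5′ difference of 1.41 ± 0.16 in AU-NS and 1.77 ± 0.35 in AI-NS (SD, n = 8 and 7, exact permutation p = 0.0151) and a beta-actin difference of 2.67 ± 0.14 in AU-NS and 2.91 ± 0.19 in AI-NS (exact permutation p = 0.0087). The non-spatial arrays are therefore independent in their rats but not free of the control difference. The interaction, which tests whether the phenotype difference depends on the task, was called for no probeset (smallest limma adjusted p = 1.0). Of all 16204 probesets 396 had an unadjusted interaction p under 0.05 (387 with a trend and robust prior). Among the 67 called probesets 3 had an interaction p under 0.05 before adjustment, those of Cd2bp2 (interaction 0.36 on the log2 scale) and Mettl15 and 1 without a gene name. The 67 were selected by the spatial difference, which is part of the interaction, and this favours a larger interaction among them. Among genes outside the calls, Dusp1 was -0.74 after spatial and -0.06 after non-spatial training, Calb1 was -0.39 and 0.06, Prox1 was -0.51 and 0.34, and Alb was -0.76 and -0.52, with no interaction called.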

How the data were processed

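RNA of the CA3 field of 31 rats was labelled and hybridized to Affymetrix Rat 230 2.0 arrays, 1 array per rat, and 1 further array had been removed by the authors as an outlier. The deposited values are log2 expression values that the authors made from the scanner files with GCRMA (background correction, quantile normalization and summary over the probes of a probeset), whose version is not given in the sources used here. They ran from 1.31 to 16.12, and the lowest mean of a probeset was 5.0. A limit of 4 on every array removed 52 probesets and a mean of at least 6 removed 1348. Arrays give no counts, and their number limits the precision. Groups came from the sample labels.

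AU-S and AI-S were compared with lmFit and eBayes in limma 3.58.1 (R 4.3.3, two-sided, Benjamini-Hochberg over 16204 probesets, threshold 0.1), and p-values measure the spread between these rats. The interaction was fitted over all 4 groups. The 3′ minus 5′ control differences were compared by exact permutation over arrays (Python 3.11.15, scipy 1.17.1, pandas 2.3.3), correlations by permutation, and figures were drawn with matplotlib 3.10.9. Probesets were named from the platform annotation: 293 carried several genes and 3647 no name here, and neither was given a gene. The 60 lists held 2287 genes, of which 1742 were measured, and each was described by counts and medians at the brightest probeset. The members and lists were chosen with earlier results of these data known. The genes named are called genes (all decreases, the increases with the smallest adjusted p or the largest difference, and those without overlap), called genes and the 3 smallest p of each list, genes the study discusses, and the controls, with some given as counts. Further list members and Sgcb were named after their values had been seen. In a test on simulated data with 200 changed probesets, 23.8% were recovered at 1.2-fold, 85.7% at 1.5-fold and 96.3% at 2-fold. False calls per run averaged 3.67, 19 and 17. The noise was drawn independently for each probeset, without effects shared across an array, so recovery on the real arrays may differ.

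Alternatives were median centring, quantile normalization, limits on low values, a trend and robust prior, weights per array, a block for the replicate number, covariates (controls, dentate and CA1 scores), a fit of 4 groups, SAM coded by hand with 100 permutations, and each array left out. Hybridization batches and learning index scores were not used here, and a few genes the study discusses are not reported here.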

Additional observations from a re-analysis of the deposited data

Results flagged for a closer look

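The 146 groups of 8 values were each a called probeset, a control difference, or the dentate or CA1 score within AU-S or AI-S. Of these, 6 held a sample far from the others of its group by Dixon's criterion, which chance alone meets in about 1 of 20 groups. Slc2a3 was highest in AU-S 3, at 9.46, and Pgrmc2 was highest in the same array, at 10.75. Mobp was lowest in AU-S 7, at 13.11. Efr3b was lowest in AI-S 5, at 11.95, and the unnamed probeset 1397693_at was lowest in AI-S 4, at 8.21. The mean 3′ minus 5′ difference of Gapdh and beta-actin was highest in AU-S 5, at 1.72.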

How the results depend on the processing

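The number of called probesets, 67 in the fit described, varied widely. It was 9 with each array centred on its median (8 higher and 1 lower), 12 after quantile normalization (11 and 1), 551 with array weights (478 and 73), 771 by SAM (770 and 1), 1 with the Gapdh and beta-actin covariate, 0 with the hexokinase covariate in limma (1114 at an unadjusted p under 0.05) and 1 with the dentate and CA1 covariates. It stayed within 1.5 times under a mean of at least 6 (78), at least 4 on every array (65), a fit of all 4 groups (63, of which 49 higher and 14 lower, with 37 of the 67 kept) and a trend and robust prior (75). With 1 array left out it ran from 5 (without AU-S 3 or AI-S 6) to 448 (without AI-S 7, 392 higher and 56 lower), and was 338 without AI-S 1. All 67 kept their sign under centring, quantile normalization and the 3 covariate fits.

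The replicate numbers did not pair the arrays: 1 of 8 same-number pairs correlated above 0.1, and no AU-S array correlated best with its own number. With the replicate number as a block 3 probesets were called (2 higher and 1 lower). Paired by number, exact sign-change p-values were 0.492 for Gapdh, 0.0391 for beta-actin, 0.0312 for hexokinase and 0.109 for the mean of Gapdh and beta-actin.

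With 1 array left out, the control differences ran from -0.06 to -0.02 for Gapdh, -0.22 to -0.14 for beta-actin, -0.44 to -0.34 for hexokinase and -0.14 to -0.08 for the mean of Gapdh and beta-actin. The cause of these changes was not tested. With 8 arrays a group, differences near 1.2-fold were mostly below what the test on simulated data recovered.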
